A study of Mus musculus with 16 samples.

Results

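The uterine response to progesterone (P4) was measured in mice that carry a transgene for isoform B of the progesterone receptor, called PRB here. The members were the 8 PRB libraries of 16 in the series, 4 from P4-treated and 4 from oil-treated uteri, and the 15408 of 31274 features whose mean over the 16 libraries was at least 1 FPKM (fragments per kilobase of transcript per unit of mapped fragments). All PRB mice have the genotype PgrcrePgrBLsL/+ in the labels, in which Cre recombinase driven from the Pgr locus activates the PgrB allele. They were ovariectomized for 2 weeks, which removes the ovarian source of steroid hormones, and the whole uterus was taken 6 h after oil or P4. Housing with littermates until 8 weeks of age is given for all mice. The labels number 4 biological replicates in each group and do not say whether litters were shared. The other 8 libraries are PgrcrePgrALsL/+ uteri, which carry the matching allele for isoform A (PRA), with the same surgery, the same treatments and 4 libraries a group, and they enter only as the comparison for the PRB response. The driver and an activated transgene are present in the oil controls too, and uteri without a transgene were not analysed here, so the values describe the response in this background. The series title places receptor B in the uterine epithelium, but Pgr is transcribed in several uterine cell types and the cells that carried the transgene were not determined here. A treatment note in the labels speaks of mated females at day 4 of pregnancy, against the titles, the sample characteristics and the design text, which the groups follow.

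Progesterone acts through nuclear receptors that bind DNA at short palindromic elements, and isoforms A and B are made from the same gene. In the rodent uterus the hormone stops estrogen-driven growth of the luminal epithelium, prepares the stroma to decidualize, and induces secreted factors that make the tissue receptive to an embryo. A cell that starts to secrete more protein usually makes more chaperones of the endoplasmic reticulum, more ribosomes and more of the enzymes that charge tRNAs with amino acids, and these pathways have well-known regulators: ATF6 and XBP1 for the endoplasmic reticulum, ATF4 for amino acid supply, and MYC for ribosome production.

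Total FPKM lay between 507931 and 520113 in the PRB oil libraries and between 578463 and 595748 in the PRB P4 libraries, and the spacing of the lowest values implied 58.1 M to 70.6 M fragments a library. At that depth 1 FPKM of a transcript of 2 kb rests on at least 107.5 fragments. In the labels the oil libraries hold earlier positions than the P4 libraries within the same row, so position and treatment cannot be told apart. PRB P4 replicate 3 stood apart: it lay at 43.3 on the second principal component of the 8 libraries (9.40% of the variance), where the other 7 lay between -20.1 and 6.50, while the first component (64.3%) separated P4 from oil. The summed FPKM of 12 epithelial markers was 794 to 906 FPKM with oil and 824 to 1088 FPKM with P4, of 8 stromal markers 1069 to 1182 FPKM with oil and 984 to 1090.3 FPKM with P4, of 8 smooth muscle markers 1225 to 1597 FPKM with oil and 1124 to 1886 FPKM with P4 and of 8 endothelial markers 216 to 244 FPKM with oil and 208 to 241 FPKM with P4. Replicate 3 was the highest P4 library in the epithelial sum and the lowest in the smooth muscle sum. In the sum of 7 tested leukocyte markers it stood at 54.4 FPKM, where the other P4 libraries lay at 28.1 to 32.5 and the oil libraries at 32.0 to 35.7. The summed markers of the mesothelium (114 to 166 FPKM with oil and 90.5 to 113 FPKM with P4) were lower in every P4 library. So were those of the ovary and oviduct (105 to 146 FPKM with oil and 81.1 to 84.8 FPKM with P4). The sum of 2 skeletal muscle markers was higher in every P4 library (16.4 to 41.2 FPKM with oil and 47.8 to 78.8 FPKM with P4). Taken singly, the groups did not overlap in 1 of 4 mesothelium and 2 of 5 ovary and oviduct markers, which were lower with P4. They also did not overlap in 1 of 2 skeletal muscle markers, which was higher. Over all features the groups did not overlap in 28.5% on the lower side and 32.6% on the higher side, so these marker counts are not unusual. The sums of 3 red blood cell markers (48.7 to 188 FPKM with oil and 131 to 315 FPKM with P4) and of 5 adipocyte markers (82.3 to 377 FPKM with oil and 66 to 216 FPKM with P4) overlapped between the groups. The markers Prss28, Prss29, Amh, Ckm and Myh4, among others, were under the filter. In whole tissue, fewer cells of a type and less RNA per cell cannot be told apart, here and in every result that follows.

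Pgr itself (chromosome 9, 8898900 to 8968611, plus strand, mm10) was the first gene examined, since both receptor isoforms are made from it; whether the transgene adds to its value is not given in the sources used here. Pgr stood at 87.6, 79.9, 79.4 and 87.3 FPKM with oil and 121, 122, 78.5 and 126 FPKM with P4. In 3 of the 4 P4 libraries it was above all oil libraries, and in replicate 3 it was below them, so the groups overlapped. The log2 difference, here and throughout the mean of log2(FPKM + 1) with P4 minus that with oil, was 0.39, SE 0.12, adjusted p = 0.00807 (limma). Without PRB P4 replicate 3 it was 0.55 (adjusted p = 2.37e-06), and after quantile normalization it was no longer called (adjusted p = 0.413).

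Most features differed in level between the P4 and oil libraries at 6 h. A feature is called, and is said to have risen or fallen, where the Benjamini-Hochberg adjusted p of limma over all 15408 features was under 0.05. Of these, 5577 (36.2%) rose and 5070 (32.9%) fell, so that 69.1% were called in all. Counts within a gene group have to be read against those shares. A change of at least 1 on the log2 scale was rarer, with 1104 features (7.17%) higher and 1005 (6.52%) lower. With pseudocount 0.1 in place of 1, 1292 were higher and 1461 lower by that much, so this balance depended on the pseudocount. At a change of at least 3, counted with pseudocount 1 only, the response was mostly upward, with 57 features higher and 13 lower. The 4 P4 and 4 oil libraries did not overlap in 32.6% of features on the higher side and 28.5% on the lower side. Without PRB P4 replicate 3, 5637 rose and 5039 fell.

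**Figure D1:**
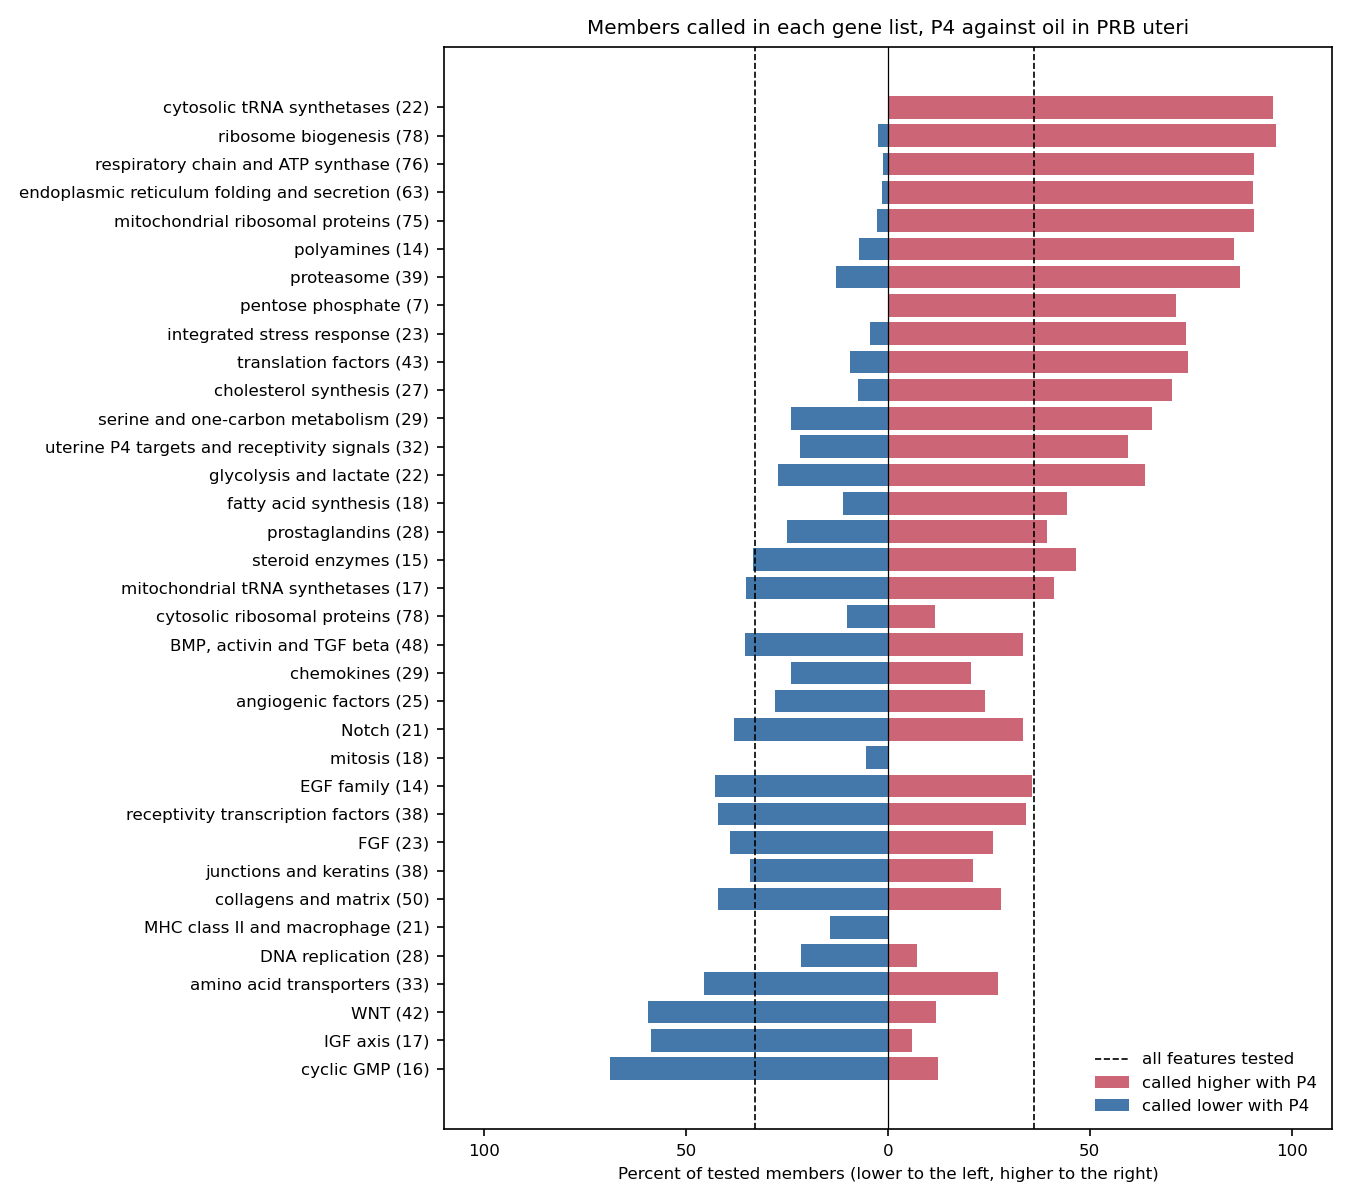
Percent of tested members of each gene list called higher (right) or lower (left) with P4 in PRB uteri, with the number tested in parentheses and dashed lines at the 36.2% and 32.9% of all features. Ribosome biogenesis, cytosolic tRNA synthetases, endoplasmic reticulum folding, mitochondrial ribosomal proteins and the respiratory chain reach farthest to the right, and the IGF axis, cyclic GMP and WNT lists lie on the left. After quantile normalization the cytosolic ribosomal proteins were mostly called lower and the respiratory chain had fewer calls.

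Many known P4 targets of the uterus rose strongly. Of 35 listed genes 32 were tested, 19 rose and 7 fell, and 16 rose by at least 1, with a list median of 1.24 where the median of all features was 0. By role, 8 of 9 enzymes rose and 1 fell, 4 of 5 intracellular effectors rose, 4 of 10 secreted signals rose and 2 fell, and 3 of 8 receptors and uptake genes rose and 4 fell. The list was drawn up with results of these data known, so the counts are a description.

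Hsd11b2 (chromosome 8, 105518746 to 105523988), whose product turns active corticosteroids into inert ones, stood at 18.3, 12.2, 13.8 and 19.9 FPKM with oil and 933, 981, 852 and 1140.4 FPKM with P4. Every P4 library was above every oil library, the ratio of the means was 60.9, and the log2 difference was 5.86, SE 0.15, adjusted p = 2.21e-12. Fst, which binds and blocks activins, stood at 1.004, 1.17, 1.13 and 1.09 FPKM with oil and 96.5, 98.1, 94.4 and 98.7 FPKM with P4. It was low in all oil libraries and high in all P4 libraries (5.55, SE 0.13, adjusted p = 1.01e-12). Il13ra2, a decoy receptor for an interleukin, stood at 1.09, 0.597, 0.885 and 1.4 FPKM with oil and 77.6, 66.6, 78.4 and 72.8 FPKM with P4, a gap nearly as wide as that of Fst (5.24, SE 0.18, adjusted p = 2.27e-11). Fkbp5, a co-chaperone that steroid receptors induce in many tissues, stood at 4.13, 2.59, 3.83 and 3.73 FPKM with oil and 143, 136, 178 and 109.96 FPKM with P4 (4.96, SE 0.15, adjusted p = 8.2e-12).

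Some signals between epithelium and stroma were among the risers. Areg, which encodes the EGF receptor ligand amphiregulin, stood at 0.0563, 0.0284, 0.0547 and 0.0416 FPKM with oil and 16.4, 34.7, 15.7 and 29 FPKM with P4. Amphiregulin RNA was almost undetected with oil and present in every P4 library (4.5, SE 0.22, adjusted p = 5.74e-10). Ihh, the morphogen that the epithelium sends to the stroma, stood at 19.2, 7.1, 11.1 and 30.6 FPKM with oil and 41.1, 70.7, 38.9 and 70.6 FPKM with P4. The groups did not touch, but both spread widely (1.78, SE 0.51, adjusted p = 0.00622). Calca, the calcitonin gene, stood at 0.318, 0.259, 0.484 and 0.332 FPKM with oil and 18.2, 36.6, 182 and 34.7 FPKM with P4, with replicate 3 far above the other P4 libraries. The log2 difference was 5.11, SE 0.47, adjusted p = 2.02e-07, and without replicate 3 it was 4.46 (adjusted p = 1.69e-09).

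Effectors inside the cell also rose. Errfi1, a brake on EGF receptor signalling, was the most expressed of these genes with P4 after Hsd11b2, at 35.7, 40.1, 26.9 and 55.1 FPKM with oil and 297, 318, 243 and 320.4 FPKM with P4 (2.91, SE 0.16, adjusted p = 1.75e-09). Lrp2, the endocytic receptor megalin (4.56), and Irg1, which makes itaconate (4.37), rose by more. Sgk1, a kinase that steroids induce, stood at 8.52, 10.7, 8.46 and 15.3 FPKM with oil and 132, 115, 147 and 92.6 FPKM with P4, with no overlap (3.4, SE 0.22, adjusted p = 6.5e-09). It was the only one of 26 P4 targets with a promoter in RefSeq (GRCm38.p6) that held the palindrome GNACANNNTGTNC, a progesterone and glucocorticoid receptor element, between 250 bases before and 50 after a start site. Searched on both strands, these letters were present in 0.475% of all 32851 promoters of that length. Counted by gene, they were present in 0.409% of the 10508 tested genes with a promoter in the table. The share was 1.15% of the 780 such genes that rose by at least 1 and 0.3% of the 667 that fell by at least 1. The stretch of the Sgk1 promoter that holds the match (chr10:21993667-21993749, plus strand, ending 175 bases before the start site at the match) is shown with the match in capitals.
Sgk1: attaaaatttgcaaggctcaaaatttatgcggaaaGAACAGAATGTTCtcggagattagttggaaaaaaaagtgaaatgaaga
A match in the letters is a description of the sequence only, and receptor elements far from start sites were not searched.

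**Figure D2:**
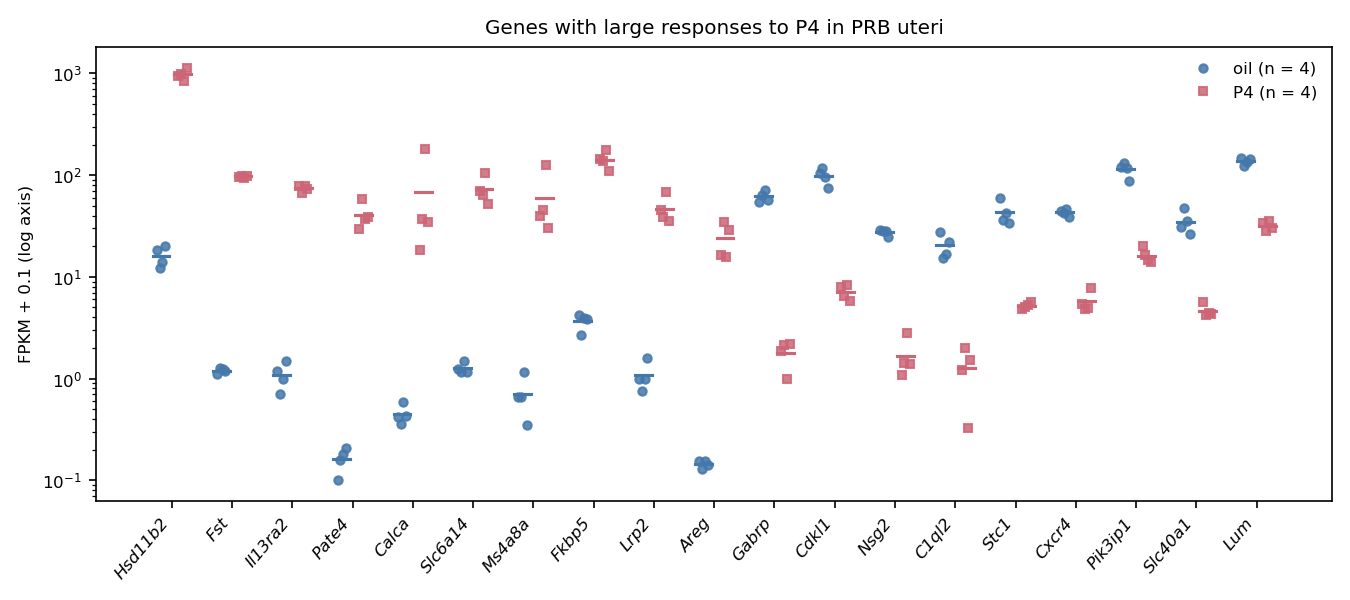
FPKM + 0.1 on a log axis of genes among the largest increases and decreases and of Lum, in the 4 oil (circles) and 4 P4 (squares) libraries of PRB uteri, with horizontal bars at the group means. The groups of each gene are apart, from Hsd11b2 on the left to Lum on the right, and the P4 points of Calca include the high replicate 3.

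Other large increases came from genes outside the list of P4 targets. Pate4, which encodes a small secreted protein known from the male tract, stood at 0, 0.0575, 0.0816 and 0.107 FPKM with oil and 29.4, 58.4, 36.6 and 38.8 FPKM with P4. Ms4a8a, a membrane-spanning protein, stood at 0.556, 0.551, 1.06 and 0.25 FPKM with oil and 39.8, 45.6, 125 and 30.1 FPKM with P4. Slc6a14, a sodium- and chloride-coupled amino acid transporter, stood at 1.14, 1.06, 1.39 and 1.05 FPKM with oil and 70.3, 63.6, 105 and 51.9 FPKM with P4. In all of them every P4 library was far above the oil libraries (Pate4 (5.26), Ms4a8a (5.05), Slc6a14 (5.05)), and Ms4a8a reached its highest value in replicate 3. Tac2 (a tachykinin peptide, 4.22), Kcnab3 (a potassium channel subunit, 4.15), Adamtsl2 (4.38), Adamts15 (a matrix protease, 3.84) and Spon1 (a matrix protein, 3.65) rose as well.

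Among named genes other than small RNAs, whose groups did not overlap, the largest decreases began from moderate levels. The ranking favours such genes, since the pseudocount of 1 understates falls from low levels. Gabrp, a GABA-A receptor subunit of epithelia, stood at 54.2, 64.3, 71.2 and 57.1 FPKM with oil and 1.75, 2.02, 0.895 and 2.07 FPKM with P4. Its mean with oil was 36.6 times that with P4 (-4.56, SE 0.17, adjusted p = 3.45e-11). Cdkl1, a kinase of the cyclin-dependent family, stood at 105, 118, 94.7 and 75.1 FPKM with oil and 7.84, 6.45, 8.21 and 5.72 FPKM with P4 (-3.61, SE 0.18, adjusted p = 6.81e-10). Pik3ip1, an inhibitor of PI3 kinase, stood at 119.9, 131, 118 and 88.5 FPKM with oil and 19.9, 16.2, 14.4 and 13.9 FPKM with P4 (-2.75, SE 0.15, adjusted p = 1.29e-09). None of these genes overlapped between the groups. Slc40a1, the iron exporter ferroportin, fell by 2.66. Nsg2, an endosomal protein of neurons, fell by 3.5, C1ql2 fell by 3.33, and Cemip, which breaks down hyaluronan, fell by 3.22.

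Transcription factors of receptivity moved both ways. Of 38 tested, 13 rose and 16 fell, shares close to those of all features. Zbtb16, a zinc finger repressor, rose most, from 8.65, 12.6, 13.1 and 5.82 FPKM to 74.1, 64.5, 91 and 71 FPKM (2.84, SE 0.29, adjusted p = 6.15e-07). Hoxa11, needed for stromal decidualization, stood at 107, 80.5, 83.3 and 125 FPKM with oil and 236, 237, 245 and 267 FPKM with P4, and all P4 libraries were higher (1.33, SE 0.12, adjusted p = 1.66e-07). Gata2, a regulator of Pgr, rose by 1.1, and Hand2, a stromal factor that restrains FGF ligands, rose by 1.04. The homeobox gene Msx2 stood at 19.9, 20.8, 33.3 and 25.8 FPKM with oil and 3.91, 6.09, 1.42 and 7.06 FPKM with P4 and fell (-2.32, SE 0.33, adjusted p = 1.76e-05), whereas Msx1, its more abundant relative, stood at 289, 233, 259.6 and 263 FPKM with oil and 276, 291, 260.4 and 284 FPKM with P4 and was not called (0.093, SE 0.082, adjusted p = 0.329).

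Genes for folding and export of secreted proteins rose almost as a block. Proteins made for secretion enter the endoplasmic reticulum through the SEC61 channel, are glycosylated, folded by chaperones such as BiP (Hspa5) and cross-linked by disulfide isomerases, and misfolded ones are returned to the cytosol for breakdown. All 63 listed genes passed the filter, 57 rose, 1 fell, and 32 rose by at least 1, with a median of 1.06 (54 and 3 after quantile normalization, median 0.84). Chaperones rose most: 14 of 15 were called higher, 13 of them by at least 1, with a median of 1.92. In the translocation and glycosylation group 21 of 21 rose (median 0.93), among the disulfide enzymes 8 of 10 (1.07), and among sensors and degradation genes 14 of 17 (0.65). In PRA uteri the list median was 0.97, and no member had a called difference of response between the strains.

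Hspa5 stood at 98.9, 97.2, 123 and 122 FPKM with oil and 546, 518, 539 and 531 FPKM with P4. The values in each group lay close together and the groups were far apart (2.27, SE 0.082, adjusted p = 3.29e-11). Sdf2l1, a partner of BiP, stood at 6.27, 5.25, 9.93 and 10.4 FPKM with oil and 87, 118, 142 and 114 FPKM with P4 (3.72, SE 0.22, adjusted p = 2.19e-09). Hyou1, another chaperone of the lumen, stood at 21.6, 20.4, 23.6 and 26.3 FPKM with oil and 164, 174, 195 and 181 FPKM with P4 (2.91, SE 0.10, adjusted p = 2.67e-11). These chaperones were thus low to moderate with oil and well above that in all P4 libraries. Creld2 (2.91), the secreted stress protein Manf (2.78), Dnajb11 (2.21), Dnajc3 (1.96), Hsp90b1 (1.92) and Calr (1.66) followed. Creb3l1, a membrane-bound transcription factor of secretory cells, stood at 4.01, 5.31, 5.03 and 5.31 FPKM with oil and 23.2, 29.9, 41.2 and 36.1 FPKM with P4 (2.48, SE 0.16, adjusted p = 5.01e-09). The classical regulators moved less: Xbp1 stood at 172, 165, 177 and 185 FPKM with oil and 320.1, 319, 356 and 323 FPKM with P4 (0.91) and Atf6 at 11.8, 11.6, 11.4 and 11.7 FPKM with oil and 18.1, 19.6, 25.9 and 21.7 FPKM with P4 (0.81), with no overlap of the groups in either. Derl3, a degradation factor of secretory cells, was the member that fell, from 6.52, 7.97, 6.16 and 4.12 FPKM to 2.86, 3.93, 4.21 and 2.85 FPKM, with overlapping groups (-0.67, SE 0.20, adjusted p = 0.00872).

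Some promoters of this group carried the endoplasmic reticulum stress element, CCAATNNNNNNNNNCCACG, which ATF6 and NF-Y are known to bind together. Searched on both strands in the 300 bases around each RefSeq start site (GRCm38.p6), it was found in 9 of 48 genes of the group that had a promoter in the table (18.8%), in 18 of 10508 tested features with a promoter (0.171%) and in 0.119% of all 32851 promoters. Matches of different motifs searched here overlapped in no promoter. Of the 780 genes with a promoter that rose by at least 1, 10 held the element, and of the 667 that fell by at least 1, 0 did. The 10 include all genes of this group that held the element and rose, so the counts are not separate. The 9 genes were Hspa5, Hsp90b1, Calr, Canx, Dnajc3, Creld2, Pdia6 and Syvn1, which rose, and Derl3, which fell, a call that was lost after quantile normalization (adjusted p = 0.0596). The stretches of 6 of them are shown, 5′ to 3′ on the strand of the gene, with the matches in capitals, for 5 of the genes that rose and for the one that fell. Hspa5 is from chr2:34771990-34772078, plus strand, Hsp90b1 from chr10:86705498-86705691, minus strand with 2 matches, Creld2 from chr15:88819485-88819573, plus strand, Dnajc3 from chr14:118937792-118937880, plus strand, Pdia6 from chr12:17266456-17266544, plus strand, and Derl3 from chr10:75893207-75893295, plus strand.
Hspa5: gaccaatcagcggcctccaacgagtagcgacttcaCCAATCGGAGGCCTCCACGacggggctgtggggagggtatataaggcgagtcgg
Hsp90b1: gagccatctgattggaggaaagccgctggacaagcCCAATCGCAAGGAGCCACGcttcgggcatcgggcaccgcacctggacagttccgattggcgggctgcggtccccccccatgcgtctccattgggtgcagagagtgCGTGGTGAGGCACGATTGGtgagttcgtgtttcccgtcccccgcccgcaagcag
Creld2: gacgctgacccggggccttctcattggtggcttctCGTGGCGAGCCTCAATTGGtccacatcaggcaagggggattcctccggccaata
Dnajc3: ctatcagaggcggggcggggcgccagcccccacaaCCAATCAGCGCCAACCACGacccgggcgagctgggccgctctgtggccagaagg
Pdia6: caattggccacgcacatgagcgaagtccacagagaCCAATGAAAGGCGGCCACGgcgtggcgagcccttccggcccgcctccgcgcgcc
Derl3: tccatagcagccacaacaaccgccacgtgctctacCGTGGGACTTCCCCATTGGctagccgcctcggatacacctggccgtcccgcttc
The matches end 46 bases before the start site in Hspa5, 193 and 88 in Hsp90b1, 107 in Creld2, 86 in Dnajc3, 79 in Pdia6 and 137 in Derl3. In Creld2 and Derl3, and for the nearer match of Hsp90b1, the capitals read as the reverse complement of the motif. Pdia6 stood at 55, 46, 62.7 and 54.5 FPKM with oil and 166, 163, 198 and 166 FPKM with P4 (1.65, SE 0.093, adjusted p = 1.74e-09), and Hsp90b1 at 80.6, 76.4, 99.5 and 89.9 FPKM with oil and 326, 302, 380.1 and 310.5 FPKM with P4 (1.92, SE 0.094, adjusted p = 5e-10). Both genes with a printed match thus rose in every P4 library.

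Genes of amino acid supply rose with them. ATF4 is a transcription factor whose translation increases when amino acids are short or the endoplasmic reticulum is loaded, and its targets make serine, charge tRNAs and import amino acids. Of 24 such genes 23 were tested, 17 rose, 1 fell, and 9 rose by at least 1 (median 0.94). Atf4 itself stood at 106, 101, 97.7 and 109.8 FPKM with oil and 311, 314, 244 and 319 FPKM with P4 (1.51, SE 0.08, adjusted p = 1.1e-09). Asns, asparagine synthetase, stood at 5.88, 5.45, 6.04 and 5.99 FPKM with oil and 36.6, 35.5, 34.6 and 46.2 FPKM with P4 (2.51, SE 0.13, adjusted p = 7.47e-10). Sesn2, which restrains mTORC1 when amino acids are low, stood at 4.18, 3.35, 3.92 and 4.69 FPKM with oil and 21.8, 25.8, 21.4 and 27.7 FPKM with P4 (2.32, SE 0.10, adjusted p = 1.5e-10). For each of these genes the lowest P4 library was above the highest oil library. Trib3, a pseudokinase of the stress response, stood at 4.61, 5.87, 4.78 and 3.69 FPKM with oil and 10.2, 9.16, 3.42 and 10.1 FPKM with P4 and was not called (0.60, SE 0.28, adjusted p = 0.0698). Its replicate 3 was below the other P4 libraries, and it was called higher without that library (0.93 (adjusted p = 0.00145)) and after quantile normalization (0.77, adjusted p = 0.0215). Slc7a11, the cystine importer, fell from 20.4, 18.8, 22.3 and 19.5 FPKM to 10.1, 9.59, 5.59 and 10.7 FPKM (-1.12, SE 0.20, adjusted p = 0.000137).

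Serine synthesis and folate-linked one-carbon metabolism, which feed purine and methyl group supply, held 19 higher and 7 lower of 29 tested (median 0.77). Mthfd2, the mitochondrial folate dehydrogenase, stood at 3.53, 2.16, 2.73 and 5.09 FPKM with oil and 59, 71.2, 46.9 and 77.6 FPKM with P4 (3.9, SE 0.26, adjusted p = 7.47e-09). Phgdh, the first enzyme of serine synthesis, stood at 10.8, 10.9, 14.1 and 13.7 FPKM with oil and 57.2, 55.1, 67.9 and 75 FPKM with P4 (2.27, SE 0.17, adjusted p = 2.01e-08). Mthfd1, the cytosolic counterpart, stood at 11.6, 10.2, 11.4 and 13.4 FPKM with oil and 62.7, 68.6, 68.9 and 68.6 FPKM with P4 (2.44, SE 0.082, adjusted p = 2.24e-11). All 3 were higher in each P4 library than in any oil library. Shmt2 (1.26), Cth (1.84), Mat2a (1.13) and the glycine decarboxylase gene Gldc (3.29) rose too. No member fell by 1 or more.

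The aminoacyl-tRNA synthetases divided by compartment. Of 22 tested genes of the cytosolic set, 21 rose and none fell, 13 of them by at least 1, with a median of 1.12 (19 higher and 1 lower after quantile normalization, which reversed the tRNA synthetase complex gene Aimp1 from 0.19 to -0.064, not called). Of 17 mitochondrial synthetases 7 rose and 6 fell, none by 1 or more, and the median was 0.12 (-0.033 after quantile normalization). Aars, the alanine enzyme, stood at 18.8, 13.6, 16.2 and 19.2 FPKM with oil and 73, 75.9, 59.8 and 92.7 FPKM with P4 (2.08, SE 0.16, adjusted p = 3.95e-08). Tars, the threonine enzyme, stood at 17.5, 16.3, 15.9 and 17.8 FPKM with oil and 57, 56.7, 48.8 and 64.3 FPKM with P4 (1.68, SE 0.083, adjusted p = 5.4e-10). Gars (1.61), Yars (1.61), Mars (1.53), Iars (1.52) and Cars (1.51) rose by similar amounts. Iars2, the most expressed mitochondrial synthetase, stood at 46.6, 46.8, 46.5 and 47.7 FPKM with oil and 44.5, 43.8, 43.4 and 43.4 FPKM with P4 (-0.10), a small fall.

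The short element TGATGNAA, the core that ATF4 binds with C/EBP partners, was counted in the same windows on both strands. Being short, it is common, and 3.97% of all promoters and 2.76% of tested genes with a promoter held it. Of the 780 genes with a promoter that rose by at least 1, 28 held it (3.59%). Of the 667 that fell by at least 1, 21 held it (3.15%). It was present in 5 of 14 cytosolic synthetase genes (Aars, Gars, Iars, Tars and Yars), in 7 of 21 stress response genes and in 3 of 23 amino acid transporter genes. None of 23 serine and one-carbon genes with a promoter held it. Asns (chr6:7693210-7693267, minus strand), Aars (chr8:111033695-111033772, plus strand), Tars (chr15:11399659-11399708, minus strand) and Slc7a11 (chr3:50443618-50443714, minus strand) are shown for 3 that rose and 1 that fell, with the matches in capitals.
Asns: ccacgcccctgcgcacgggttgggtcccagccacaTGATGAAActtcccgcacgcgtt
Aars: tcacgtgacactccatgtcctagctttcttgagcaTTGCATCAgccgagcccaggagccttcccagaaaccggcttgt
Tars: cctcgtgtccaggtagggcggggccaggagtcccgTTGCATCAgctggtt
Slc7a11: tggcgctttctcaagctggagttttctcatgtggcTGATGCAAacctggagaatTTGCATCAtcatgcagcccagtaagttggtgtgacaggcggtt
The matches end 15 bases before the start site in Asns, 104 in Aars, 7 in Tars, and 58 and 39 in Slc7a11. A further Aars match lies after the start site and is not shown. The gene that fell carries 2 matches, so these letters too were found on both sides of the response.

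Amino acid transporters did not move together. Of 33 tested, 9 rose (27.3%) and 15 fell (45.5%), beside 36.2% and 32.9% of all features (list median -0.18). Besides Slc6a14, the neutral transporter Slc1a4 (2.35), the arginine and lysine transporter Slc7a1 (1.65) and the leucine transporter Slc7a5 (1.32) rose. Slc1a5, the glutamine transporter, stood at 96, 111, 117 and 89.3 FPKM with oil and 198, 209, 199 and 202 FPKM with P4 (0.97, SE 0.085, adjusted p = 1.27e-07). The glutamate transporter Slc1a3 fell by 1.41, Slc7a8 fell by 1.19, and Slc6a6, the taurine transporter, fell by 1.18 from a mean of 132 ± 25.5 FPKM with oil to 57.7 ± 12.3 FPKM with P4 (SD, n = 4).

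Nearly all factors that build ribosomes rose, while the proteins of the cytosolic ribosome did not. Of 78 assembly and processing factors tested, 75 rose and 2 fell, 37 rose by at least 1, and the median was 0.96 (72 and 2 after quantile normalization). By role, 29 of 29 members of the small nucleolar particles and the processome rose (median 0.94), 27 of 28 factors of the large subunit (1.04), 9 of 9 of the small subunit (1.25) and 10 of 12 of RNA polymerase I (0.58). Rrp12, an export factor, stood at 2.98, 2.94, 3.35 and 3.77 FPKM with oil and 19.1, 21.2, 19.5 and 24.2 FPKM with P4 (2.37, SE 0.10, adjusted p = 1.8e-10). Bysl, needed for the small subunit, stood at 4.85, 4.03, 4.66 and 6.37 FPKM with oil and 28, 27.7, 23.8 and 28.6 FPKM with P4 (2.24, SE 0.12, adjusted p = 1.24e-09). Ddx21, a nucleolar helicase, stood at 23.9, 20.9, 23 and 27.9 FPKM with oil and 92, 91.5, 91.8 and 104 FPKM with P4 (1.95, SE 0.10, adjusted p = 7.4e-10). In each of these genes the P4 libraries all lay above the oil libraries. The most expressed member, Npm1, rose by 0.49. Myc, the textbook driver of this programme, stood at 41.9, 46.6, 38.6 and 56.9 FPKM with oil and 78, 90.8, 73.5 and 104 FPKM with P4 and rose (0.90, SE 0.13, adjusted p = 2.29e-05).

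Cytosolic ribosomal protein genes stayed within -0.31 to 0.49 on the log2 scale, with 9 higher and 8 lower of 78 and a median of -0.036. This set depended on the scaling, since after quantile normalization 3 were called higher and 69 lower, with a median of -0.28. Rps15a was the largest increase (0.49, 25.4 ± 1.37 FPKM with oil and 36.5 ± 6.63 with P4, SD, n = 4). Rplp1, at 1028 ± 34.7 FPKM with oil and 1043 ± 74.2 with P4 (SD, n = 4), was not called (adjusted p = 0.832) and turned from 0.019 to -0.44 under quantile normalization. Many ribosomal protein genes have near-identical pseudogenes, so reads may be split among copies. Of 43 translation factors 32 rose and 4 fell (median 0.67), against 30 and 11 after quantile normalization (median 0.43). The cap-binding protein gene Eif4e stood at 24.3, 20.5, 21.8 and 27 FPKM with oil and 64.9, 65.5, 62.7 and 66.9 FPKM with P4 (1.44, SE 0.084, adjusted p = 2.39e-09). Eif2s1 (1.34), Eif2s2 (1.34), the release factor gene Etf1 (1.31) and Eif4a1 (1.2) also rose, whereas the abundant elongation factor gene Eef2 fell by 0.22, a call lost without PRB oil replicate 1 and without PRB P4 replicate 2 (adjusted p up to 0.0583 over the alternatives).

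**Figure D3:**
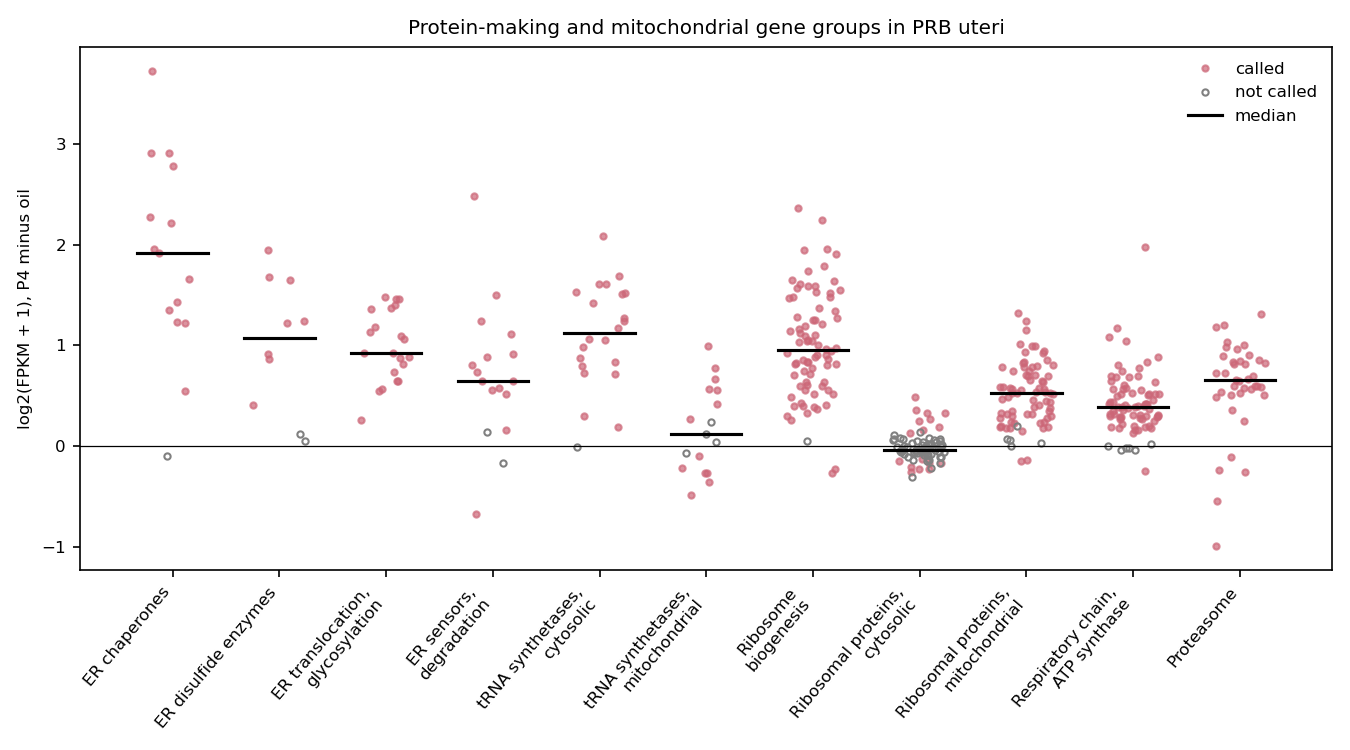
Log2 differences (P4 minus oil, log2(FPKM + 1) scale) of single genes in groups that make proteins or act in mitochondria, with filled points for called genes, open points for genes not called and black bars at the group medians. Chaperones (median 1.92) and cytosolic tRNA synthetases (1.12) lie above the mitochondrial synthetases (0.12) and the cytosolic ribosomal proteins (-0.036), whose median was -0.28 after quantile normalization.

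Mitochondrial and degradation genes rose by smaller amounts. Of 75 mitochondrial ribosomal protein genes 68 rose and 2 fell, but only 4 rose by at least 1 (median 0.53). In the respiratory chain and ATP synthase 69 of 76 rose and 1 fell (median 0.39), and after quantile normalization 39 rose and 10 fell (median 0.12). Cycs, cytochrome c, stood at 6.03, 5.34, 6.41 and 7.28 FPKM with oil and 26.9, 27.8, 28.1 and 27.2 FPKM with P4 (1.98, SE 0.081, adjusted p = 1.02e-10), the largest change in that list. Mrps18b (1.32) and Mrpl12 (1.16) led the mitochondrial ribosome. Of 39 proteasome genes 34 rose and 5 fell (median 0.65). Psmc5, an ATPase of the cap, stood at 36.1, 33.2, 37.5 and 44.4 FPKM with oil and 86.9, 86.3, 84.9 and 92.4 FPKM with P4 (1.2, SE 0.086, adjusted p = 1.66e-08). The interferon-inducible subunit gene Psmb9 went the other way, from 23.8, 23, 29.9 and 39.5 FPKM to 13.7, 14, 16 and 11.7 FPKM (-0.99, SE 0.15, adjusted p = 3.08e-05).

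In cholesterol synthesis, which SREBP2 governs, 19 of 27 rose and 2 fell (median 0.69). Cyp51, the lanosterol demethylase, stood at 8.13, 7.75, 7.83 and 9.62 FPKM with oil and 34.4, 23.1, 25.8 and 21.9 FPKM with P4 (1.53, SE 0.13, adjusted p = 7.6e-08). Every P4 library was above every oil library. Idi1, which isomerizes the isoprenoid building block, rose by 1.16. In fatty acid synthesis 8 of 18 rose and 2 fell, with Acaca, the rate-limiting carboxylase, at 1.27 and its mitochondrial relative Acacb at -0.89.

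Glucose uptake and the first steps of glycolysis rose most in that pathway (14 higher and 6 lower of 22). Slc2a3, a high-affinity glucose transporter, stood at 14.1, 12.3, 8.35 and 12 FPKM with oil and 71.7, 113, 152 and 122 FPKM with P4 (3.16, SE 0.18, adjusted p = 1.97e-09). Pfkfb3, which makes the activator of phosphofructokinase, stood at 18.6, 24.3, 25.2 and 25.1 FPKM with oil and 169.96, 177, 167 and 172 FPKM with P4 (2.84, SE 0.10, adjusted p = 2.67e-11). Hk2, hexokinase, stood at 2.98, 2.74, 4.8 and 5.6 FPKM with oil and 23.9, 25.6, 22.4 and 27.6 FPKM with P4 (2.4, SE 0.16, adjusted p = 1.02e-08). None of these overlapped between groups, and all P4 values were above all oil values. Ldha rose by 0.92, Pgk1 by 0.93, and Aldoc fell by 1.74. Polyamine genes, which share their methyl donor with one-carbon metabolism, held 12 higher and 1 lower of 14, led by spermidine synthase Srm, at 19.8, 20.3, 21.6 and 29.1 FPKM with oil and 109.9, 125, 124 and 136 FPKM with P4 (2.41, SE 0.13, adjusted p = 1.35e-09). Smox (1.81), Amd1 (1.55) and the rate-limiting Odc1 (1.32) rose too.

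WNT genes lay mostly on the falling side. WNT ligands bind Frizzled receptors and stabilize beta-catenin, R-spondins amplify the signal through LGR receptors, and secreted antagonists block it. Of 42 genes tested 5 rose and 25 fell, 12 of them by at least 1, with a median of -0.54 (-0.42 after quantile normalization). Ligands and R-spondins held 10 lower and 0 higher of 13 (median -0.96), antagonists 6 lower and 2 higher of 8 (-0.62), and receptors and targets 9 lower and 3 higher of 21 (-0.21). Activators and blockers of the pathway thus fell side by side.

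Wnt7a, made by the luminal epithelium, stood at 61.4, 65.2, 88.2 and 72.4 FPKM with oil and 13.5, 12, 7.27 and 10.7 FPKM with P4 (-2.64, SE 0.19, adjusted p = 2.05e-08). Fzd10, a Frizzled receptor, stood at 72.8, 87.8, 71.6 and 53.1 FPKM with oil and 12.3, 11.1, 5.73 and 9.99 FPKM with P4 (-2.77, SE 0.21, adjusted p = 2.76e-08). Rspo3, an R-spondin, stood at 78.1, 90.7, 69.7 and 55.9 FPKM with oil and 36.3, 22.9, 16.1 and 19.4 FPKM with P4 (-1.64, SE 0.21, adjusted p = 7.17e-06). Each gene was lower in all P4 libraries than in any oil library. The antagonist Wif1 stood at 8.99, 6.01, 13.9 and 21.2 FPKM with oil and 0.614, 1.59, 0.0582 and 2.37 FPKM with P4 (-2.65, SE 0.51, adjusted p = 0.000299). Notum, which removes the lipid from WNT ligands, stood at 20.1, 20.2, 28 and 28.8 FPKM with oil and 6.49, 6.86, 1.22 and 6.74 FPKM with P4 (-2.14, SE 0.39, adjusted p = 0.000174). Lgr5, the R-spondin receptor, fell by 1.76, and the feedback target Axin2 by 1.08. Wnt4, known for its role in decidualization, stood at 21.1, 15, 15.1 and 25.3 FPKM with oil and 8.07, 9.52, 5.28 and 10.3 FPKM with P4 and also fell (-1.11, SE 0.20, adjusted p = 0.000155), while Wnt5a stood at 42, 32.8, 36.6 and 47.9 FPKM with oil and 40.2, 39.2, 36.9 and 36.2 FPKM with P4 and was not called (-0.048, SE 0.10, adjusted p = 0.68). Fzd1 was an exception among the receptors and rose by 1.04. Of the 12 epithelial markers 3 rose and 2 fell (2 and 4 after quantile normalization), and the part of these cells in the WNT values was not tested.

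In the IGF axis the ligand and its receptor moved apart. Igf1, a growth factor of the uterine stroma, stood at 15.1, 12.7, 20.4 and 15.9 FPKM with oil and 33.4, 43.2, 71 and 61.7 FPKM with P4 and rose (1.61, SE 0.20, adjusted p = 5.98e-06). All 5 tested receptor and adaptor genes fell, among them Igf1r, at 35.4, 54.4, 42.1 and 38.6 FPKM with oil and 25.9, 25.1, 32 and 23.2 FPKM with P4 (-0.65, SE 0.14, adjusted p = 0.000587). Irs1, the adaptor below the receptor, stood at 40.1, 39.1, 40.01 and 40.9 FPKM with oil and 16.2, 12.4, 10.03 and 12.9 FPKM with P4 (-1.58, SE 0.11, adjusted p = 1.78e-08). Both receptor-side genes were lower in all P4 libraries. Of 10 binding proteins and their regulators 5 fell and none rose, including Pappa, the protease that frees IGF from its binding proteins (-2.04), and Stc1, its inhibitor, which stood at 59.2, 36.2, 42.7 and 33.8 FPKM with oil and 4.74, 4.92, 5.21 and 5.5 FPKM with P4 (-2.82, SE 0.16, adjusted p = 1.52e-09). Igfbp3, at 209 ± 53.3 FPKM with oil and 127 ± 43.2 with P4 (SD, n = 4), was called at -0.74 but lost the call without PRB oil replicate 2, PRB P4 replicate 2 or PRB P4 replicate 4.

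**Figure D4:**
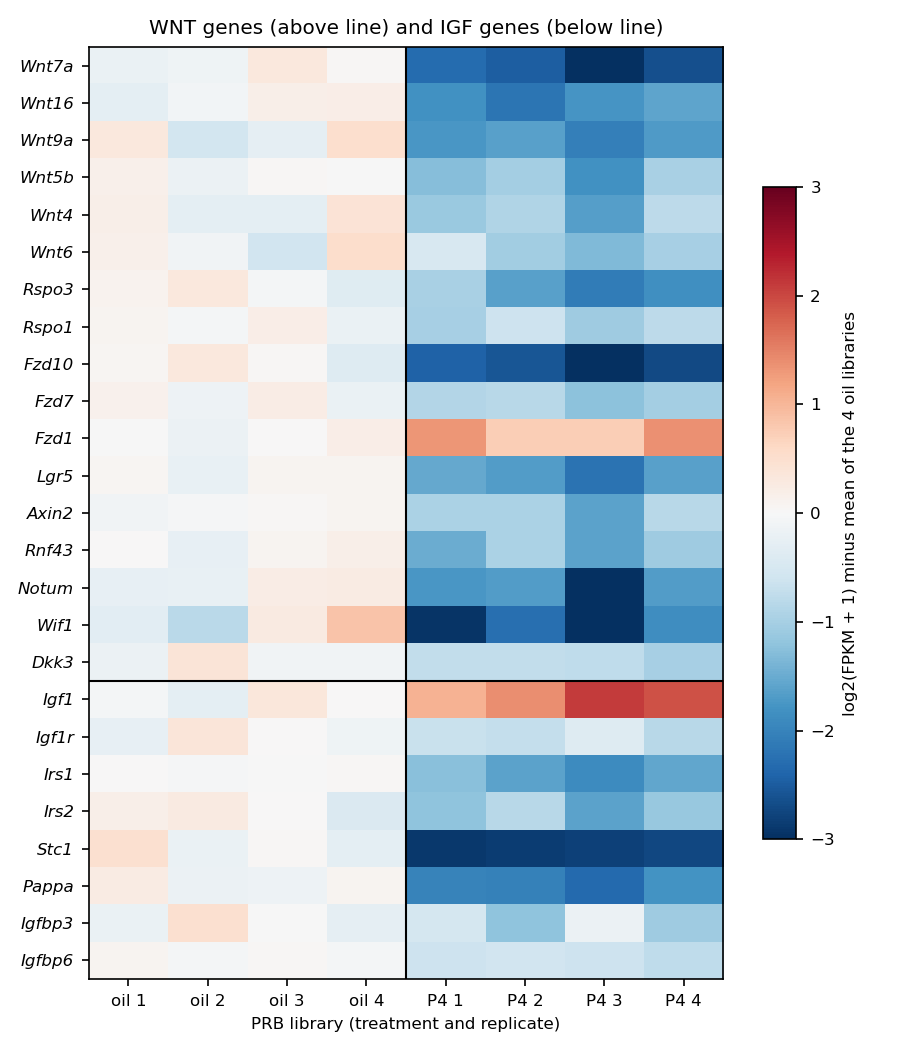
Log2(FPKM + 1) minus the mean of the 4 oil libraries in every PRB library (columns) for WNT genes (above the line) and IGF genes (below it), from blue (-3) to red (3), with lower values drawn as -3. The P4 columns are blue for most genes in all 4 replicates, with Fzd1 and Igf1 as red rows.

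FGF genes held 6 higher (26.1%) and 9 lower (39.1%) of 23, beside 36.2% and 32.9% of all features. Fgf10, a stromal ligand, stood at 7.04, 8.47, 8.02 and 8.44 FPKM with oil and 34.1, 25.6, 28.4 and 27.3 FPKM with P4 (1.73, SE 0.16, adjusted p = 2.32e-07), and Fgf7, its close relative, rose by 1.66. Fgf9 and Fgf18, ligands that HAND2 is known to hold down in the uterine stroma, fell by 1.16 and 1.55. Of the 8 ligands tested 2 rose and 3 fell.

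The list of BMP, activin and TGF beta genes held 16 higher and 17 lower of 48, shares close to those of all features. By role, 6 of 11 antagonists rose and 2 fell, against 3 and 5 of 13 ligands. Receptors held 5 higher and 4 lower of 12, and SMAD and target genes 2 higher and 6 lower of 12. Besides Fst, its relative Fstl3 stood at 8.1, 7.72, 7.14 and 11.6 FPKM with oil and 40.6, 46.4, 46.8 and 53.6 FPKM with P4 (2.33, SE 0.14, adjusted p = 2.25e-09), and the BMP antagonist Nog rose by 2.15. Acvrl1, a receptor of endothelium, stood at 20.5, 22.2, 18.6 and 20.2 FPKM with oil and 68.2, 83.9, 62.9 and 83.9 FPKM with P4 (1.82, SE 0.11, adjusted p = 5e-09). The inhibin subunit gene Inha fell by 1.3, beside ovary and oviduct markers, of which it is one and whose sum was lower in every P4 library; their part in this result was not tested. Bmp2, a decidual ligand, stood at 6.81, 6.64, 7.47 and 6.85 FPKM with oil and 6.88, 6.16, 5.13 and 6.43 FPKM with P4 and was not called (-0.16, SE 0.10, adjusted p = 0.16).

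Notch genes held 7 higher and 8 lower of 21, shares close to those of all features. The ligand gene Jag1 had a log2 difference of -1.25, the coactivator gene Maml3 of -1.81 and the target gene Hey2 of 1.02. EGF family genes held 5 higher (35.7%) and 6 lower (42.9%) of 14, beside 36.2% and 32.9% of all features. Areg and the feedback inhibitor Errfi1 rose, as did Hbegf (0.95), while the receptors Erbb2 and Erbb3 fell by 0.81 and 0.83.

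Cyclic GMP signalling, which relaxes smooth muscle through natriuretic peptide receptors and nitric oxide-driven cyclases, fell at the receptor level. All 7 tested receptor and cyclase genes fell (median -0.61), and in the whole list 2 rose and 11 fell of 16 (after quantile normalization 3 and 8). Gucy2g, a receptor cyclase, stood at 12.8, 14.4, 12.8 and 8.84 FPKM with oil and 2.03, 1.4, 0.84 and 0.993 FPKM with P4 (-2.52, SE 0.17, adjusted p = 1.03e-08). Pde5a, the phosphodiesterase that degrades cyclic GMP, stood at 39.7, 33.8, 35.5 and 25.5 FPKM with oil and 16.3, 11.3, 9.58 and 10.7 FPKM with P4 (-1.43, SE 0.16, adjusted p = 1.55e-06). Both were lower in every P4 library. The smooth muscle markers did not separate by treatment, their sum being 1225 to 1597 FPKM with oil and 1124 to 1886 FPKM with P4.

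Prostaglandin genes held 11 higher (39.3%) and 7 lower (25%) of 28, beside 36.2% and 32.9% of all features. Release and synthesis genes mostly rose (8 of 14). Ptgs1, cyclooxygenase, stood at 26.3, 26.5, 27 and 26.6 FPKM with oil and 90.4, 107, 96.3 and 91.7 FPKM with P4 (1.82, SE 0.084, adjusted p = 3.25e-10). Hpgds, which makes prostaglandin D, stood at 23.8, 32.1, 14.6 and 8.65 FPKM with oil and 1.38, 1.42, 4.89 and 1.15 FPKM with P4 and fell (-2.68, SE 0.53, adjusted p = 0.000406). The synthases thus moved in opposite directions, and the receptor gene Ptgfr fell by 1.31. Among steroid enzymes 7 rose (46.7%) and 5 fell (33.3%) of 15. Hsd11b1, which activates glucocorticoids, stood at 8.94, 8.64, 6.6 and 7.95 FPKM with oil and 3.28, 3.04, 4.1 and 2.97 FPKM with P4 (-1.05, SE 0.091, adjusted p = 1.06e-07), opposite to Hsd11b2. Akr1c14 fell by 1.52, the sulfotransferase gene Sult1a1 rose by 1.51, and Cyp26a1, which degrades retinoic acid, rose by 3.41.

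Of 50 matrix genes tested 14 rose (28%) and 21 fell (42%), beside 36.2% and 32.9% of all features. Lum and Dcn, small leucine-rich proteoglycans of the stroma, fell. Lum stood at 148, 124, 134 and 144 FPKM with oil and 33.6, 28, 35 and 29.8 FPKM with P4 (-2.09, SE 0.08, adjusted p = 5.57e-11) and Dcn at 652, 592, 573 and 615 FPKM with oil and 351, 333, 326 and 333 FPKM with P4 (-0.85, SE 0.085, adjusted p = 4.6e-07). Bgn, a proteoglycan of the same family, stood at 86.7, 109, 88.1 and 109 FPKM with oil and 529, 446, 531 and 509 FPKM with P4 and rose (2.35, SE 0.11, adjusted p = 5e-10). These relatives thus moved in opposite directions with no overlap in any of them. Col12a1 (2.7) and Col15a1 (2.17), collagens at fibril surfaces and basement membranes, rose, and the laminin genes Lama3 and Lamb3 fell by 1.24 and 1.23. The stromal marker sum overlapped between the groups (1069 to 1182 FPKM with oil and 984 to 1090.3 FPKM with P4), but it holds Dcn, which fell, and Hoxa11, which rose.

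Tight junction genes held 5 higher and 5 lower of 16, shares close to those of all features. Adherens and desmosome genes held 2 higher (14.3%) and 7 lower (50%) of 14. Cldn3, an epithelial claudin, stood at 184, 187, 144 and 202 FPKM with oil and 556, 587, 643 and 571 FPKM with P4 (1.72, SE 0.10, adjusted p = 2.9e-09). Cldn2, a pore-forming claudin, stood at 0.938, 0.444, 0.942 and 1.26 FPKM with oil and 19.7, 34.9, 3.49 and 41 FPKM with P4 (3.37, SE 0.51, adjusted p = 3.19e-05). In Cldn2 the P4 libraries ranged widely, with replicate 3 the lowest, and without it the log2 difference was 4.07 (adjusted p = 1.14e-08). Gjb2, a gap junction protein, fell by 1.68.

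Angiogenic factors held 6 higher (24%) and 7 lower (28%) of 25, both under the 36.2% and 32.9% of all features. Pgf, a VEGF relative, stood at 5.22, 4.85, 4.4 and 5.35 FPKM with oil and 16.6, 19.5, 18.2 and 19.2 FPKM with P4 (1.7, SE 0.12, adjusted p = 1.83e-08), while Vegfa stood at 135, 114, 152 and 199 FPKM with oil and 168, 177, 139 and 215 FPKM with P4 and was not called (0.23, SE 0.17, adjusted p = 0.229). Ednrb, an endothelin receptor gene, stood at 3.56, 4.61, 5.25 and 3.54 FPKM with oil and 23.2, 18.6, 70.2 and 21.7 FPKM with P4, again with replicate 3 apart, and its log2 difference was 2.51, SE 0.31, adjusted p = 3.95e-06 (2.09 (adjusted p = 5.56e-08) without replicate 3).

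Chemokines held 6 higher (20.7%) and 7 lower (24.1%) of 29, both under the 36.2% and 32.9% of all features. The low-level ligands Cxcl1 and Ccl7 rose by 1.46 and 1.14. Cxcl12, the abundant stromal chemokine, stood at 249, 230.2, 246 and 197 FPKM with oil and 105, 82, 98.3 and 78.5 FPKM with P4 (-1.34, SE 0.11, adjusted p = 4.71e-08). Its receptor gene Cxcr4 stood at 44.7, 42.1, 46.7 and 39 FPKM with oil and 5.28, 4.71, 4.87 and 7.71 FPKM with P4 (-2.75, SE 0.14, adjusted p = 6.43e-10). Ligand and receptor were both lower in every P4 library. In the MHC class II and macrophage list 3 of 21 fell and none rose, and without PRB P4 replicate 3, which had the highest leukocyte marker sum, 6 fell.

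Proliferation genes did not rise with the protein-making groups. Of 28 DNA replication genes 2 rose and 6 fell (median -0.19, and 0.71 in PRA uteri), and of 18 mitosis genes none rose and 1 fell. Pcna, the sliding clamp, stood at 51.2, 46.4, 55.5 and 64.8 FPKM with oil and 86.8, 85.1, 78.2 and 93 FPKM with P4 and rose (0.65, SE 0.14, adjusted p = 0.000714). Mcm7, a subunit of the replicative helicase, stood at 34.5, 30.5, 34.2 and 33.9 FPKM with oil and 22.3, 25.1, 15.7 and 28.1 FPKM with P4 and fell (-0.56, SE 0.14, adjusted p = 0.00272). Gins2, which belongs to the same helicase, stood at 7.76, 7.43, 10.3 and 13.2 FPKM with oil and 4.67, 5.11, 3.32 and 6.5 FPKM with P4 and fell (-0.85, SE 0.24, adjusted p = 0.00577). Bub1b, a spindle checkpoint kinase, was the mitosis gene that fell (-1.31).

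The response of PRB uteri was set against that of PRA uteri by an interaction contrast, the PRB log2 difference minus the PRA one. It was called for 352 of 15408 features (2.28%), of which 227 (1.47%) were more positive and 125 (0.811%) more negative in PRB. These counts depended on single libraries: without PRB P4 replicate 3 they were 342 and 166, and over all left-out libraries they ran from 120 to 342 and from 34 to 207. Of the 227, 119 rose in both strains and rose more in PRB, 47 rose in PRB and were not called in PRA, and 19 rose in PRB and fell in PRA. Of the 125, 34 fell in both, 38 fell in PRB and were not called in PRA, and 17 fell in PRB and rose in PRA.

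Several of the largest P4-induced genes were among them. Pate4 rose by 5.26 in PRB and 2.23 in PRA (difference 3.03, SE 0.35, adjusted p = 0.000644). Ms4a8a rose by 5.05 and 2.28 (difference 2.77, SE 0.46, adjusted p = 0.00771, and 2.34 (adjusted p = 0.000582) without replicate 3). Scube2, a secreted partner of hedgehog ligands, stood at 3.95, 4.58, 3.43 and 2.74 FPKM with oil and 75.4, 54.1, 40.9 and 57.7 FPKM with P4 in PRB (3.62, against 1.36 in PRA, difference 2.26, SE 0.25, adjusted p = 0.00045). Areg differed by 2.0, SE 0.32, adjusted p = 0.00531. These genes rose in both strains and rose further in PRB. Acsbg1, a fatty acyl-CoA synthetase gene, stood at 0.201, 0.186, 0.349 and 0.273 FPKM with oil and 4.13, 7.46, 6.46 and 4.57 FPKM with P4 in PRB, where it rose by 2.38 against 0.27 in PRA (difference 2.11, SE 0.21, adjusted p = 0.000228). Gldc and Fkbp5, described above, had differences of 1.43, SE 0.13, adjusted p = 0.000189 and 1.27, SE 0.21, adjusted p = 0.00771.

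On the falling side Cdkl1 fell further in PRB (difference -1.51, SE 0.26, adjusted p = 0.00876). Igsf10, which encodes an immunoglobulin superfamily protein, stood at 10.1, 7.84, 9.41 and 10.5 FPKM with oil and 2.67, 2.1, 2.8 and 2.97 FPKM with P4 in PRB and had a log2 difference of -1.52, where the value in PRA was 0.052 and not called (difference of response -1.57, SE 0.21, adjusted p = 0.00144). Tmem132c moved in opposite directions, at -1.3 in PRB and 0.68 in PRA (difference of response -1.97, SE 0.38, adjusted p = 0.0157). Mycl, a MYC relative, stood at -2.02 in PRB and -0.57 in PRA on the log2 difference scale (difference of response -1.45, SE 0.21, adjusted p = 0.00353). Of the 28 replication genes 5 had a called difference, all more negative in PRB, whereas the 5 called among the 32 P4 targets were all more positive. The replication genes included Gins2 (-1.58, SE 0.34, adjusted p = 0.0287) and Pola2 (-0.75, SE 0.14, adjusted p = 0.0152). The call of Gins2 was lost in 7 of 23 alternatives, and that of the P4 target Il13ra2 in 4 (limma adjusted p up to 0.641). In PRA uteri Gins2 stood at 8.74 ± 3.25 FPKM with oil and 14.7 ± 3.28 FPKM with P4 (SD, n = 4). The secretion, ribosome and tRNA synthetase lists held no called difference, which does not show that the strains responded alike.

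**Figure D5:**
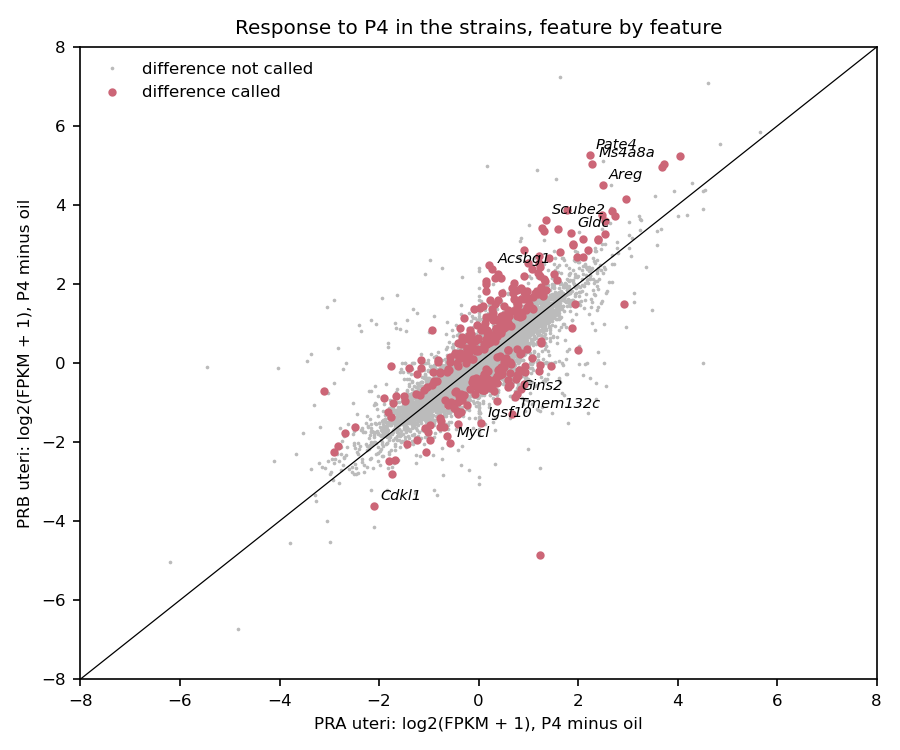
Log2 difference (P4 minus oil, log2(FPKM + 1) scale) in PRB uteri (vertical axis) against PRA uteri (horizontal axis) for 15408 features, with the line of equal response and the 352 called differences as larger points. Most features lie along the line, with Pate4 and Ms4a8a above it and Cdkl1 and Tmem132c below it.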

How the data were processed

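RNA-seq of whole uteri was deposited as FPKM per feature and library. The authors' processing notes name TopHat2 2.0.4, Cufflinks 2.0.2, Cuffdiff and mm10, without roles or order. The annotation, the strandedness and any between-library scaling are named by no label or header used here. No counts were used. The spacing of low values of features over 800 bases with 1 transcript, with 150 bases taken off the length, gave the depth.

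From the deposited FPKM, log2(FPKM + 1) was fitted with limma 3.58.1 (R 4.3.3), with all 16 libraries, 1 mean per group and an intensity trend, over 15408 features with mean FPKM of at least 1 (7717 of 31274 were 0 in every library). Tests were two-sided, with Benjamini-Hochberg adjustment over all of them, and were tested on simulated data. The log2 scale with pseudocount 1 understates changes of low genes. The contrasts were P4 minus oil in PRB and that response minus the PRA response. Levels are mean ± SD, and per-library values run from replicate 1 to 4.

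The members, contrasts and 35 gene lists were chosen with earlier results of these data known. Of 1209 listed genes 1142 were tested and the others were under the filter or not in the table. Named genes were Pgr, the 25 largest separated changes each way, up to 8 called and the 2 most expressed members of each list, the 10 largest response differences each way, the 5 most expressed called features each way and genes whose promoter is printed. Atf6, Axin2, Bmp2, Canx, Fzd1, Ihh, Myc, Syvn1, Trib3, Wnt4, Wnt5a and Xbp1 were named after their values were seen, as were further genes in the plot of WNT and IGF genes. A few genes that the rule names are not reported here. Promoters (250 bases before to 50 after RefSeq starts, GRCm38.p6) matched 10508 of the tested features by symbol. Alternatives were pseudocount 0.1, no filter, mean of at least 5, quantile and median-ratio scaling, only PRB libraries, a replicate block, no trend, and each library left out.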

Additional observations from a re-analysis of the deposited data

Results flagged for a closer look

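PRB P4 replicate 3 accounts for 13 of 23 values that lay far from the other libraries of their group. The 181 genes of this text gave 362 gene and group combinations, examined by Dixon's test, in which chance alone marks about 1 in 20. In that library Calca stood at 182 FPKM, Ms4a8a at 125, Tac2 at 37.9, Ednrb at 70.2, Hpgds at 4.89, Xbp1 at 356 and Pdia6 at 198, each above the other P4 libraries. Atf4 stood at 244 FPKM, Pgr at 78.5, Trib3 at 3.42, Notum at 1.22, Aldoc at 2.80 and Pola2 at 9.36, each below them. The same library had the highest leukocyte and epithelial marker sums and the lowest smooth muscle sum of the P4 group, and their part in these values was not tested.

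The other 10 values were spread over libraries. With oil, replicate 2 stood apart for Aldoc (31.4 FPKM), Lgr5 (19.4), Mcm7 (30.5) and Mrps18b (23.4), replicate 1 for Pfkfb3 (18.6) and Tac2 (0.97), and replicate 4 for Pola2 (17.9). With P4, replicate 1 stood apart for Mthfd1 (62.7) and Slc40a1 (5.59), and replicate 4 for Ddx21 (104).

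The response to P4 differed between PRB and PRA uteri by the interaction contrast (limma, adjusted p under 0.05) in 21 of these 181 genes. Other genes that the selection rule names, such as Cyp2j11 and Sprr2e, also had called differences and are not listed. The difference, PRB minus PRA on the log2 scale, was positive for Pate4 (3.03), Ms4a8a (2.77), Scube2 (2.26), Cyp26a1 (2.13), Acsbg1 (2.11), Areg (2.00), Gldc (1.43), Slc6a14 (1.33), Fkbp5 (1.27), Il13ra2 (1.20), Kcnab3 (1.19), Adamts15 (1.16), Smox (0.90) and Ptgs1 (0.64). It was negative for Tmem132c (-1.97), Gins2 (-1.58), Igsf10 (-1.57), Cdkl1 (-1.51), Mycl (-1.45), Stc1 (-1.08) and Pola2 (-0.75). The call was lost for Gins2 in 7 of 23 alternatives, for Cyp26a1 in 6, for Il13ra2 in 4 and for Stc1 in 1.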

How the results depend on the processing

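Counts of features called higher or lower in PRB, and those changed by at least 1, stayed within 1.5 times the reported count under every alternative run. The balance still moved. With pseudocount 0.1, 1292 features were higher and 1461 lower by at least 1, against 1104 and 1005 as reported. With no filter 6155 features rose and 6363 fell. Scaling moved the balance of calls too, to 5388 higher and 5321 lower with median-ratio scaling and to 5151 and 5291 after quantile normalization. The median over all features moved to -0.023 and -0.011 with these scalings. With single libraries left out, 5323 to 5637 features rose and 4781 to 5039 fell, 1063 to 1176 and 986 to 1088 of them by at least 1. The response difference rested more on single libraries, with 120 to 342 features more positive and 34 to 207 more negative. Fewer libraries lower the number that can be called, but more were called in both directions without PRB P4 replicate 3 (342 and 166), PRA oil replicate 4 (270 and 207) or PRA P4 replicate 1 (266 and 178), and in one direction without PRB P4 replicate 4 (235 more positive) or PRB oil replicate 2 (134 more negative), and the cause was not tested.

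The same-numbered oil and P4 libraries of PRB did not deviate together (correlations -0.038, -0.091, -0.043 and 0.041). PRA libraries were not checked in this way, so whether the numbers pair libraries was not determined. With the replicate block 5598 features rose and 5107 fell in PRB. With it 261 response differences were more positive and 206 more negative, against 227 and 125 without it.

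Of 175 genes of this text called in PRB, 170 kept direction and call in all alternatives. Derl3 (adjusted p up to 0.0596), Eef2, Igfbp3 and Pgr lost the call in some, and Aimp1 turned to -0.064 after quantile normalization. Among genes not called, quantile normalization reversed Bmp2 (0.011), Msx1 (-0.13), Vegfa (-0.052) and Rplp1 (-0.44). Rplp1 was also at -0.0079 with median-ratio scaling and between -0.023 and 0.049 with single libraries left out, and Wnt5a was at 0.044 without PRB oil replicate 4. Calls were gained for Vegfa in that same setting (0.38, adjusted p = 0.0427) and for Wnt5a (-0.25, adjusted p = 0.0394) after quantile normalization. No alternative chosen later was added.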

Other observations

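Gene families outside the lists were looked at after the values had been seen, and their counts are descriptions beside the 36.2% of all features that rose and 32.9% that fell. Transport between compartments rose with the secretory genes: of 20 vesicle coat genes 18 rose and 1 fell (median 0.70), led by Sec23b, a coat protein of vesicles leaving the endoplasmic reticulum, which stood at 41.3, 30.2, 36.8 and 40.4 FPKM with oil and 166, 169, 182 and 173 FPKM with P4 (2.19, SE 0.11, adjusted p = 5.25e-10). Of 23 nuclear transport receptors 19 rose and none fell (median 0.92), with Kpna2, an importin, at 5.41, 3.2, 6.98 and 9.76 FPKM with oil and 21, 21.2, 14.5 and 24.2 FPKM with P4 (1.59, SE 0.34, adjusted p = 0.000699). Both genes were higher in every P4 library. In the cytosolic chaperonin and prefoldin 11 of 12 rose, with Cct6a at 1.28, and in mitochondrial import 17 of 23 rose, with Timm10 at 1.43.

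In some other families more members fell than rose. Of 28 Hox genes 19 fell and 2 rose (median -0.40), although Hoxa11 was one of the risers. Of 43 protocadherins 32 fell and 1 rose (median -0.34), but after quantile normalization only 10 fell and 2 rose. Reads of the clustered protocadherins may be shared among near copies. Of 44 histone genes 24 fell and none rose (median -0.48), against 15 and 1 after quantile normalization, with Hist1h1c, a linker histone gene, at 55.7, 45.7, 66.9 and 33.9 FPKM with oil and 15.6, 18.5, 14.4 and 14.8 FPKM with P4 (-1.58, SE 0.17, adjusted p = 9.3e-07). Among 331 numbered zinc finger genes 142 fell and 78 rose (median -0.11), against 121 and 92 after quantile normalization.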
